A study of Mus musculus with 12 samples.

Results

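The genes that make, sense, move and export cholesterol were followed in mouse liver across 4 groups that differ in genotype and treatment. The set holds 32 genes grouped by their known roles. An array probe set annotated to that 1 gene was found for 30 of the 32 while 18193 genes in all had one, and the exceptions were Acat2 and Soat2. The other 30 genes have 64 probe sets. Each gene is represented by its brightest probe set, and a gene was tested where at least 3 of the 12 arrays exceeded a log2 signal of 5. By this rule 29 of the 30 genes were tested, of 8338 tested in all. The exception was Mvd, whose signal was 6.41 in 1 liver and 3.56 to 4.49 in the others.

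Cholesterol is built in the liver from acetyl-CoA through mevalonate, isoprenoid units, squalene and a series of sterols. When sterol levels in the endoplasmic reticulum fall, Scap carries the precursors of the sterol response transcription factors (Srebf2 and Srebf1 encode them) to the Golgi, where proteases release the active part, which turns on the genes of synthesis. Insig1 and Insig2 encode the anchors that hold Scap back when sterols are plentiful. Excess sterol acts through liver X receptors, one of which is encoded by Nr1h3, and these turn on the genes of export. Keap1 marks the transcription factor Nrf2 for destruction, so that losing Keap1 or blocking it with a drug leaves Nrf2 active.

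Livers came from male mice, 9 weeks old, on the C57Bl/6J background, with 3 mice in each group. Mice called CKO carried Albumin-Cre:Keap1(flox/-), that is, 1 floxed and 1 null Keap1 allele together with a Cre recombinase driven by the hepatocyte promoter of albumin. The controls, called WT here after their labels, carried Alb-Cre:Keap1(flox/+), so they also have Cre and a floxed allele beside their wild-type allele. By this design, once Cre has acted, hepatocytes of the controls keep the wild-type allele alone, and Keap1 deletion below is measured against these. Outside hepatocytes a CKO mouse is left with the floxed allele and the null allele. Mice received vehicle alone (PBS with DMSO and Cremophor-EL) or, by gavage, 30 µmol/kg of CDDO-Im in it, and were killed 6 h later. CDDO-Im is a synthetic triterpenoid of the oleanane type that activates Nrf2 through Keap1. The series set out to compare activation of Nrf2 by gene deletion with activation by the drug. The groups were WT vehicle (replicates 1, 2 and 3), WT CDDO-Im (replicates 2, 3 and 4), CKO vehicle (replicates 3, 4 and 5) and CKO CDDO-Im (replicates 2, 3 and 4), and signals below are always given in that order of replicates. All signals are log2 values of whole liver RNA, in which fewer cells of a type and less RNA per cell cannot be told apart.

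Promoters of genes that the results turn on are shown first, as the 250 bases before the RefSeq transcription start in GRCm38.p6. Of the 32 genes, 26 are in the promoter table used here. Those not in it are Fdps, Fdft1, Sqle, Stard4, Soat2 and Npc1. The windows were searched on both strands for a sterol regulatory element (TCACNCCAC), the NF-Y box (CCAAT), the core of the antioxidant response element (TGACNNNGC) and the E-box (CANNTG). Capitals mark matches to the first 3, whose factors are the sterol response factors, NF-Y and Nrf2 with its partners. Aacs (chr5:125475623-125475872, plus strand), Sc5d (chr9:42264301-42264550, minus strand), Insig1 (chr5:28071162-28071411, plus strand) and Abca1 (chr4:53159896-53160145, minus strand) are shown because they changed in at least 1 comparison, Sc5d by its dimmer probe sets. Hmgcs1 (chr13:119690101-119690350, plus strand) is shown as the only one of the 26 genes searched with the sterol regulatory element. The interval of 109 bases between the starts of Abcg5 and Abcg8, which lie head to head (chr17:84683012-84683120, plus strand), is shown because both genes are read from it. The last 2 were chosen after the signals were seen. Dhcr7, also called below, has 3 starts in the table, and its windows are not printed.
Aacs: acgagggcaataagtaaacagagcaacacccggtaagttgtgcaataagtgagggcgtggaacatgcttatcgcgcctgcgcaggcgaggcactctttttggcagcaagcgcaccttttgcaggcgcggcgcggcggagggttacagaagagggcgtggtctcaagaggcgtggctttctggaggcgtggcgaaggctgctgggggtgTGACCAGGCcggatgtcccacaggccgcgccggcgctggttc
Sc5d: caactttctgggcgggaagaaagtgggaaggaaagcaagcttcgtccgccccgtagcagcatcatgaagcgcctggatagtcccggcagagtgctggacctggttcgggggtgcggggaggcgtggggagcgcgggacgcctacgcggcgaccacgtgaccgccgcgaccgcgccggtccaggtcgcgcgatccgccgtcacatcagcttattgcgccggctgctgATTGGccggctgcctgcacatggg
Insig1: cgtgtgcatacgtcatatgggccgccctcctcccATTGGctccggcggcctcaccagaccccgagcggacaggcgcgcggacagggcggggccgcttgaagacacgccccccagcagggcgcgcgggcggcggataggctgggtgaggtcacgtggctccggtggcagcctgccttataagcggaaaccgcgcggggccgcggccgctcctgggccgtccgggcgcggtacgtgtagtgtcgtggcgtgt
Abca1: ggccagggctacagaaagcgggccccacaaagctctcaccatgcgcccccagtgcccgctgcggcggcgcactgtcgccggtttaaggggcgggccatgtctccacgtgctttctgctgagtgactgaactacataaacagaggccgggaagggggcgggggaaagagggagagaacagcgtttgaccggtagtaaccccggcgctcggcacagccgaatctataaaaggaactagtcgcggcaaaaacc
Hmgcs1: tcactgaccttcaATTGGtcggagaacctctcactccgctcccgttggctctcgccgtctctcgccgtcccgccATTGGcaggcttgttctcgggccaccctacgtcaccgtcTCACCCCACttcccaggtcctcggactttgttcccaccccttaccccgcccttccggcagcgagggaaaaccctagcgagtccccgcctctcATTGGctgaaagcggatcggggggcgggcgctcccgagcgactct
Abcg5-Abcg8 interval: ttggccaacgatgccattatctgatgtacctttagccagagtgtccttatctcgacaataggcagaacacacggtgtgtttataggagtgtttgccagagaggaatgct

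Aacs held the antioxidant response element core 42 to 34 bases before its start. NF-Y boxes lay 216 to 212 bases before the start of Insig1 and 24 to 20 bases before that of Sc5d. Hmgcs1 held its sterol regulatory element 137 to 129 bases before the start, with NF-Y boxes at 237 to 233, 176 to 172 and 45 to 41. Neither the Abca1 window nor the Abcg5-Abcg8 interval held any of the 3 marked motifs, which says only that these letters are not there. The Abcg8 window that includes this interval is longer, and held NF-Y boxes 175 to 171 and 114 to 110 bases before the start. These boxes lay outside the interval. Because some genes have several starts, the 26 genes gave 34 windows. The NF-Y box was found in 20 of these 34 windows (58.8%), against 33.8% of all 32851 promoter windows of the same length. The sterol regulatory element was in 1 of 34 (2.94%, against 1.05% of all windows). The antioxidant response element core was in 4 of 34 (11.8%, against 10.2%), those of Mvk, Pmvk, Aacs and Dhcr7, and the E-box in 24 of 34 (70.6%, against 66.2%). A match is a description of letters and not of binding.

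The labels were checked on Keap1 and on Nqo1, a quinone reductase that is a textbook Nrf2 target. Keap1 probe set 1450746_at read 7.92 to 8.17 in WT vehicle, 8.46 to 8.89 in WT CDDO-Im, and 2.74 to 3.31 in all 6 CKO livers. A second Keap1 probe set, 1450747_at, differed less, at 6.58 to 7.48 in WT vehicle and 6.15 to 6.51 in the CKO livers and which of them reads the deleted part was not known here. Nqo1 rose by 4.86 ± 0.35 (SE) on the log2 scale with Keap1 deletion under vehicle (limma, adjusted p = 4.55e-05) and by 3.45 ± 0.35 with CDDO-Im in WT livers (adjusted p = 0.000934). The 7 hepatocyte markers with a probe set each exceeded 5 on at least 3 arrays, and their sum was 17.94 to 18.09 across the livers. Marker sums here and below are the log2 of summed linear signals, so the brightest markers weigh most in them.

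One liver stood apart from its group for the cholesterol genes, and the main results are also given without it. WT vehicle 1 lay above the mean of the other 2 WT vehicle livers in 26 of the 29 genes tested, by a median of 0.70, while 45.3% of all 8338 genes lay above. Among the 17 genes of the mevalonate and sterol steps it was higher in 15, by a median of 1.13, and it was the highest of all 12 arrays for 19 of the 29 genes. The gap was widest for Sqle, squalene epoxidase, an early oxygen-requiring step of the pathway, at 11.72 against 9.38 and 8.61. Mvd, the mevalonate decarboxylase gene, read 6.41 in this liver against 4.17 and 4.49, which is why it was not tested. The exceptions were Aacs, 0.56 lower than the mean of the other 2, Nr1h3, 0.20 lower, and Tm7sf2, which was level with them. The same liver had the lowest Nqo1 signal of all 12, 5.18 against 6.53 and 6.96, and was above the other 2 for 9 of 9 Kupffer cell and macrophage markers, by a median of 0.86. Whether these features belong together was not tested. CKO vehicle 4 lay below the mean of the other 2 CKO vehicle livers in 22 of 29 genes, by a median of 0.29 in size, while 49.7% of all genes lay above. It was the lowest of 12 for 8 of the 29 genes. CKO vehicle 5 was as one-sided the other way, above the mean of its other 2 in 24 of 29 genes by a median of 0.22, with 52.5% of all genes above.

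**Figure D1:**
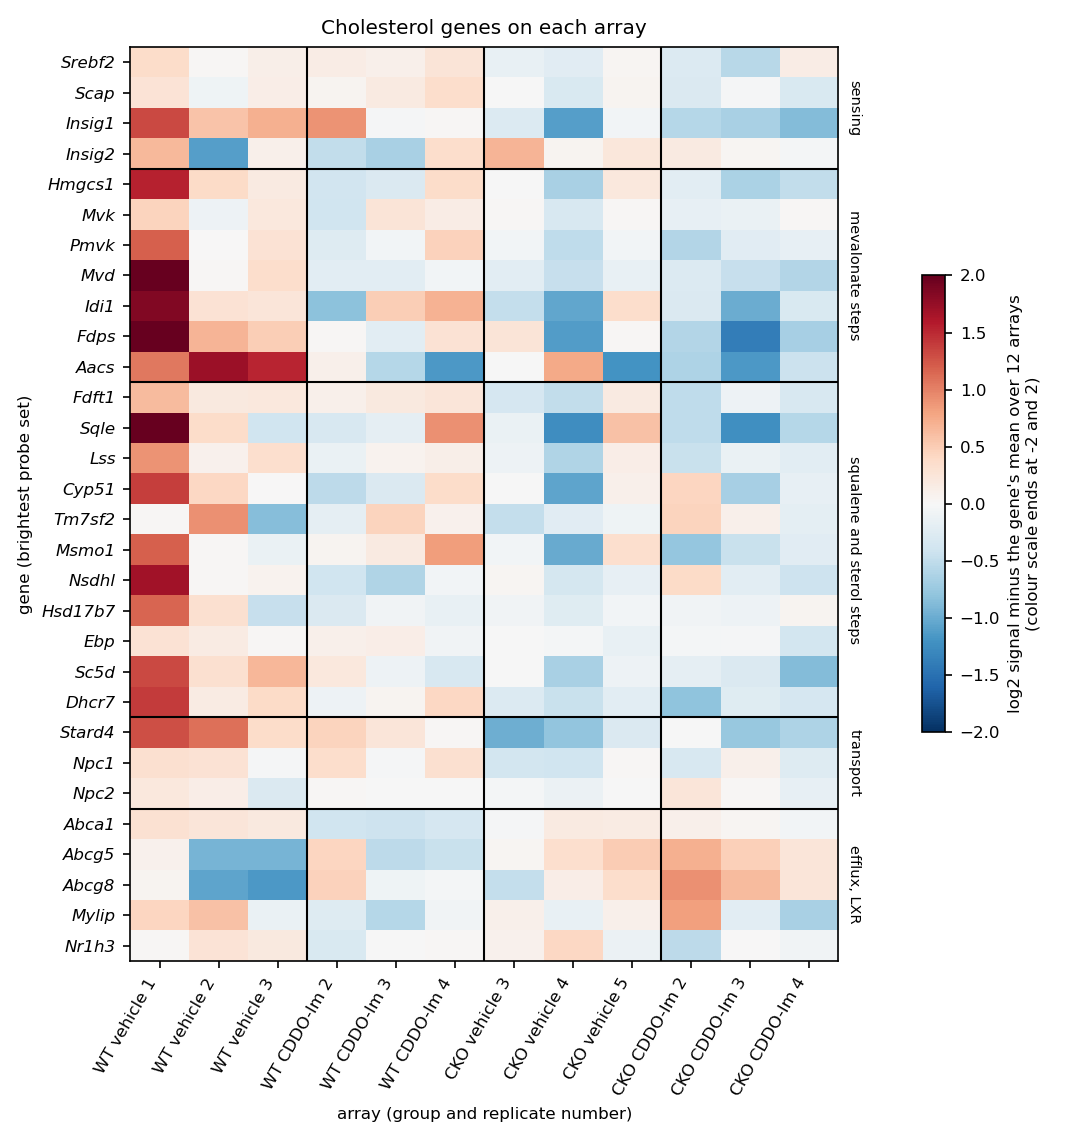
Log2 signal of 30 cholesterol genes (rows, brightest probe set) on each of the 12 arrays (columns, grouped by vertical lines), as the difference from the gene's mean over the 12 arrays, with the colour scale ending at -2 and 2. WT vehicle 1 is the darkest red column through the mevalonate and sterol steps, CKO vehicle 4 has 8 of the lowest values, and Abcg5 and Abcg8 have the reverse order of colours, low in WT vehicle 2 and 3 and high in the CKO CDDO-Im livers.

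The spread between livers of 1 group was wider for the cholesterol genes than for the array as a whole. The median SD within WT vehicle was 0.51 for the 29 genes against 0.148 for all genes, and 26 of the 29 were above the all-gene median. In the other 3 groups the medians for the 29 genes were 0.274 in WT CDDO-Im, 0.271 in CKO vehicle and 0.269 in CKO CDDO-Im, against 0.132 to 0.134 for all genes.

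**Figure D2:**
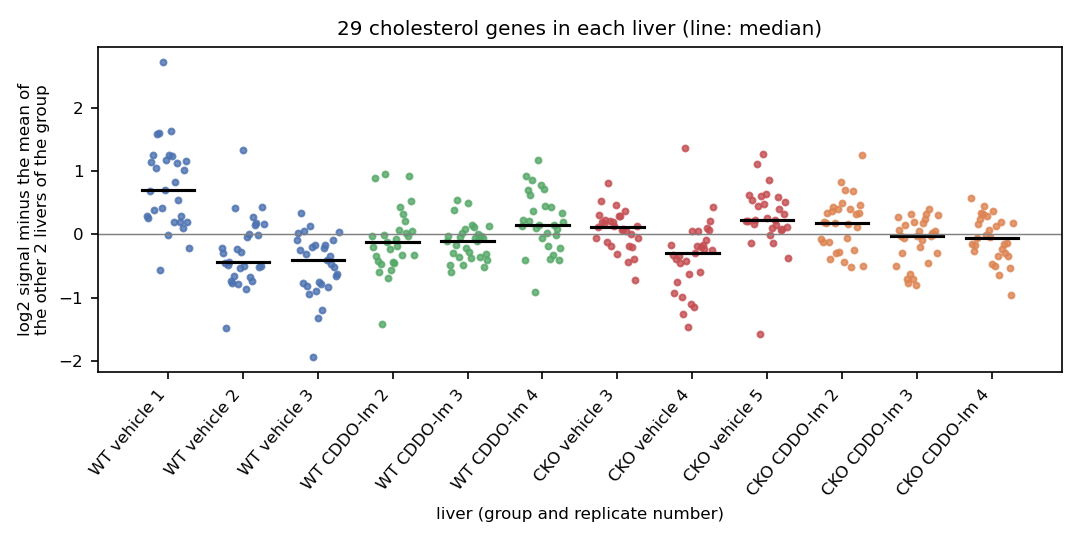
Each point is 1 of the 29 cholesterol genes tested; the vertical axis is its log2 signal in a liver minus the mean of the other 2 livers of the same group, and the line is the median over genes. The median is 0.70 for WT vehicle 1 and -0.29 for CKO vehicle 4, and between -0.43 and 0.22 for the other 10 livers.

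Few of the cholesterol genes passed the test in any comparison, although most of them lay lower in WT livers given CDDO-Im and in CKO livers than in WT vehicle livers. A gene is said to have risen or fallen where limma gave a Benjamini-Hochberg adjusted p under 0.05 over all 8338 genes. With CDDO-Im in WT livers, Aacs and Abca1 fell, 2 of 29 genes (6.9%), where 3.65% of all genes were called. In that comparison 24 of 29 (82.8%) were lower, against 55.1% of all genes, with a median change of -0.45 against -0.02 over all genes. Without WT vehicle 1 the median was -0.10, against -0.03 over all genes, and 19 of 29 (65.5%) were lower, against 55.7%. In that setting 2 genes were called (6.9%, against 2.89% of all genes), Abca1, which fell, and Abcg8, which rose.

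With Keap1 deletion under vehicle, Insig1 and Stard4 fell, again 2 of 29 (6.9%), close to the 6.51% called over all genes. Here 26 of 29 (89.7%) were lower, against 51.2% of all genes, and the median change was -0.56, against -0.01 over all genes. Leaving out WT vehicle 1 brought the median to -0.25, against -0.01 over all genes, with 25 of 29 (86.2%) lower, against 52.7%. The genes called were then Stard4, which fell, and Abcg5, which rose (6.9%, against 3.6% of all genes). These 2 comparisons share the WT vehicle livers, so the height of WT vehicle 1 enters both. The groups did not overlap for 6 of 29 genes (20.7%) in the first and 10 of 29 (34.5%) in the second, all of them lower, against 23.3% and 26.3% of all genes in either direction. Without WT vehicle 1, which leaves 2 livers in that group, the counts were 9 of 29 (31%, 6 lower and 3 higher) and 12 of 29 (41.4%, 10 lower and 2 higher), against 33.8% and 34% of all genes.

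With CDDO-Im in CKO livers none of the 29 genes was called, where 0% of all genes were called. By the unadjusted p under 0.05 the count was also 0 of 29, against 9.47% of all genes, and the groups did not overlap for 0 of 29, against 14.6% of all genes. The unadjusted count was 1 of 29 without WT vehicle 1, for Abcg8 at a change of 0.60, against 9.44% of all genes. The median change was -0.10. Between CKO and WT livers both given CDDO-Im, 1 of 29 genes was called, Abca1, which was higher in CKO, against 1.54% of all genes, and the groups did not overlap for 9 of 29 (31%, against 22.7%), 8 of them lower. Set directly against WT livers given CDDO-Im, the CKO vehicle livers again differed in Abca1 alone (4.29% of all genes called), and 6 of 29 genes did not overlap (20.7%, against 27.8%). For the interaction, which asks whether the drug's change differed between the genotypes, 0 of 29 genes were called (0.276% of all genes), and 2 of 29 (6.9%) had an unadjusted p under 0.05, against 10.3% of all genes. The median interaction of 0.33 was 0.01 without WT vehicle 1.

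A pair of averaged comparisons was added after the signals were seen. Averaged over both treatments, CKO livers had lower Insig1, Fdft1, Dhcr7 and Stard4, 4 of 29 genes (13.8%), where 10.6% of all genes were called. The median was -0.41, against -0.01 over all genes, with 24 of 29 (82.8%) lower, against 51.9%. All 6 CKO livers lay below all 6 WT livers for 3 genes, Insig1, Dhcr7 and Stard4 (10.3%, against 4.87% of all genes). Without WT vehicle 1, Insig1, Dhcr7 and Stard4 fell, Abcg5 and Abcg8 rose, and Fdft1 was no longer called. The share called was then 17.2% of the 29 genes, against 8.13% of all genes. Averaged over both genotypes, 1 gene of 29 was called with CDDO-Im, Abca1, which was lower (3.45%, against 2.46% of all genes called). By genotype, the change of Abca1 was -0.63 ± 0.08 in WT livers and -0.08 ± 0.08 in CKO livers. There 24 of 29 (82.8%) were lower, against 57% of all genes, with a median of -0.25 against -0.02. Abcg8 also rose without WT vehicle 1, by 0.91 ± 0.18 (adjusted p = 0.0342), and the median of the 29 genes was -0.11, against -0.03 over all genes. The share called in that setting was 6.9% of the 29 genes, against 3.1% of all genes.

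**Figure D3:**
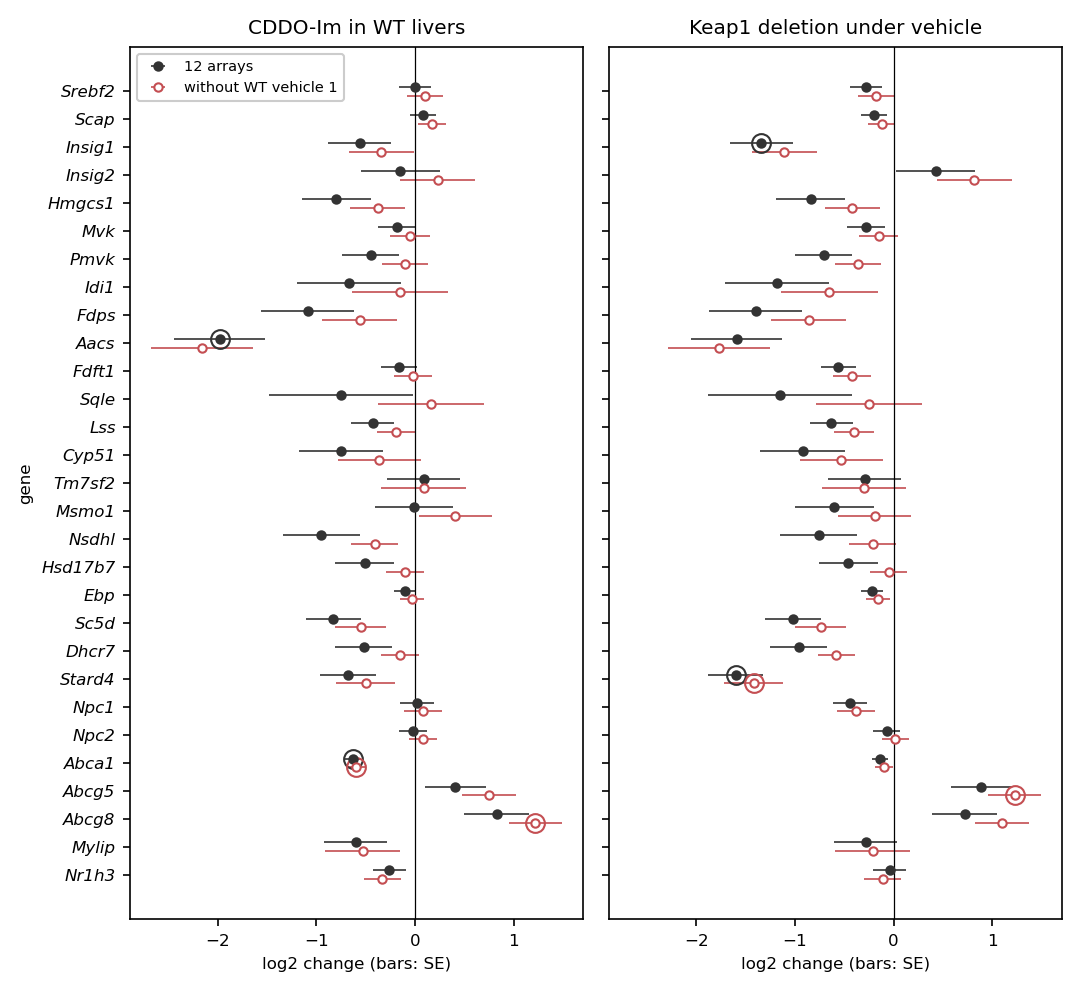
Log2 change (horizontal axis, bars are SE) of each of 29 genes with CDDO-Im in WT livers (left) and with Keap1 deletion under vehicle (right), from all 12 arrays (filled) and without WT vehicle 1 (open); a ring marks an adjusted p under 0.05. Most synthesis genes move toward 0 without that liver, Abca1 and Stard4 stay ringed in both, and Abcg5 and Abcg8 move away from 0.

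Among the sensors, Insig1 was the gene that changed. Its signals were 11.91, 11.15 and 11.29 in the WT vehicle livers, 11.48, 10.56 and 10.61 in the WT livers given CDDO-Im, 10.31, 9.49 and 10.53 in the CKO vehicle livers, and 10.02, 9.94 and 9.72 in the CKO livers given the drug. All 6 CKO livers were below all 6 WT livers, with WT CDDO-Im 3, at 10.56, and CKO vehicle 5, at 10.53, nearly level. Under vehicle the fall with Keap1 deletion was 1.34 ± 0.32 on the log2 scale, 2.52-fold (limma, adjusted p = 0.0336). It was not called without any 1 of WT vehicle 1, 2 or 3, CKO vehicle 3 or 4, or CKO CDDO-Im 3, with adjusted p up to 0.111. The change was -1.11 ± 0.33 without WT vehicle 1. Averaged over treatments the fall was 1.16 ± 0.22 (adjusted p = 0.0109), and it was 1.05 ± 0.22 without WT vehicle 1 (adjusted p = 0.0249). Under CDDO-Im the CKO livers were 0.99 ± 0.32 lower (log2), which did not pass the test (adjusted p = 0.157).

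Insig2, its relative, was not called in any of the 8 comparisons. Under vehicle its means were 12.08 ± 0.90 (SD, n = 3) in WT and 12.51 ± 0.32 in CKO livers, and under CDDO-Im 11.93 ± 0.54 and 12.26 ± 0.11, with overlapping livers in both pairs. Srebf2, the sterol response factor of cholesterol synthesis, averaged 7.09 ± 0.18 and 7.09 ± 0.08 in the WT groups and 6.81 ± 0.13 and 6.70 ± 0.36 in the CKO groups. Averaged over treatments it was 0.33 ± 0.12 lower (log2) in CKO livers (adjusted p = 0.0949), and Scap, its escort, was 0.30 ± 0.09 lower (adjusted p = 0.0715), so neither passed. The group means of Scap lay between 10.74 and 11.14.

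**Figure D4:**
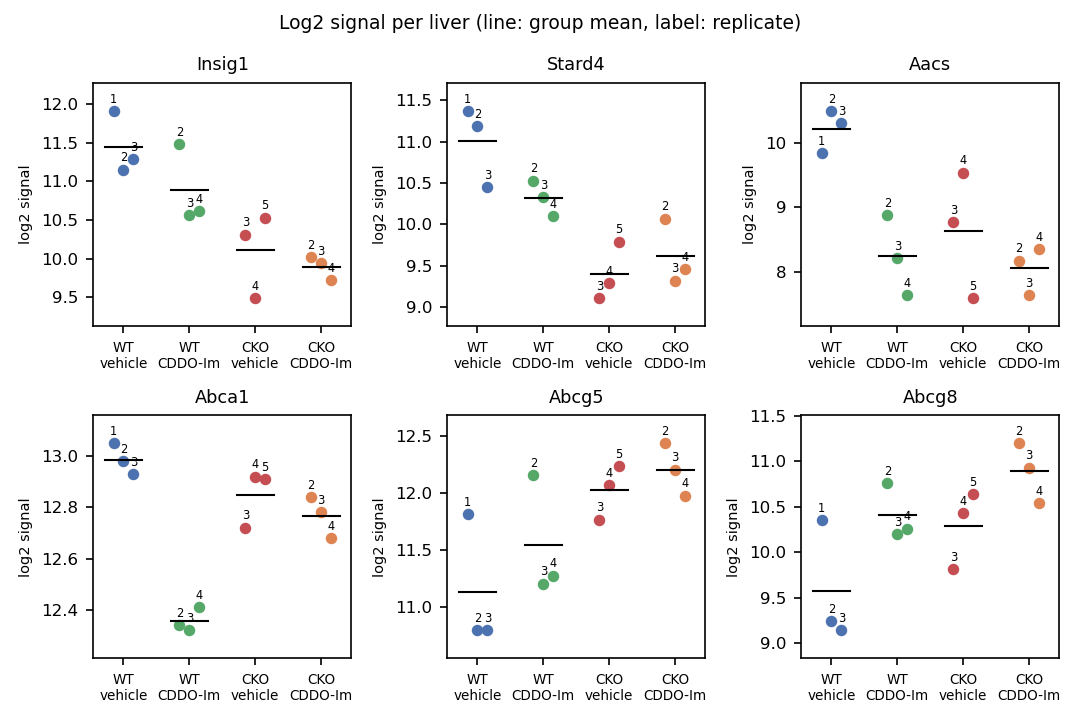
Log2 signal of 6 genes (1 panel each, vertical axis) in every liver, with the replicate number above each point and a line at the group mean. Insig1 and Stard4 are lower in all CKO livers than in all WT livers, Aacs is highest in WT vehicle, Abca1 is lowest in the 3 WT CDDO-Im livers, and WT vehicle 1 lies apart from WT vehicle 2 and 3 for Abcg5 and Abcg8.

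In the mevalonate steps all 6 genes tested were lower both with CDDO-Im in WT livers and with Keap1 deletion under vehicle, and 1 of them, Aacs, passed the test, with the drug. Over all genes the shares lower were 55.1% and 51.2%. Aacs encodes acetoacetyl-CoA synthetase, which feeds acetoacetate, a ketone body, into lipid synthesis in the cytosol. It read 9.84, 10.50 and 10.31 in the WT vehicle livers, 8.88, 8.21 and 7.63 in the WT livers given CDDO-Im, 8.77, 9.54 and 7.59 in the CKO vehicle livers, and 8.17, 7.63 and 8.35 in the CKO livers given the drug. The 3 WT vehicle livers were above all 9 others, and WT vehicle 1 was the lowest of the 3, unlike its place for the rest of the pathway. CDDO-Im lowered Aacs in WT livers by 1.98 ± 0.46 (log2), 3.93-fold (adjusted p = 0.0435). The call depended on the arrays: it stayed without WT CDDO-Im 2, CKO vehicle 4 or CKO vehicle 5, and was lost without any 1 of the other 9, with adjusted p up to 0.154. The change was larger without WT vehicle 1, -2.16 ± 0.52, at an adjusted p of 0.066. A second probe set, 1456081_a_at, gave -1.83 ± 0.42 (adjusted p = 0.039 over all probe sets). With Keap1 deletion under vehicle the change was -1.59 ± 0.46 (adjusted p = 0.0685), and CKO vehicle 4, at 9.54, was the CKO liver nearest to the WT vehicle range. The drug's change in CKO livers was -0.58 ± 0.46, and the interaction of 1.39 ± 0.65 did not pass (adjusted p = 0.503).

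Hmgcs1, the cytosolic synthase that makes HMG-CoA, carries the sterol regulatory element printed above. It read 12.96, 11.80 and 11.61 in the WT vehicle livers, 11.04, 11.13 and 11.79 in the WT livers given CDDO-Im, 11.41, 10.78 and 11.64 in the CKO vehicle livers, and 11.21, 10.79 and 10.94 in the CKO livers given the drug. WT vehicle 1 was the highest of the 12, and WT vehicle 3 was lower than WT CDDO-Im 4 and CKO vehicle 5. Its changes of -0.80 ± 0.35 with CDDO-Im in WT livers and -0.84 ± 0.35 with Keap1 deletion (adjusted p = 0.245 and 0.191) were -0.38 ± 0.28 and -0.42 ± 0.28 without WT vehicle 1. Fdps, farnesyl diphosphate synthase, which joins isoprenoid units, read 12.21, 10.71 and 10.52 in the WT vehicle livers, 10.05, 9.82 and 10.31 in the WT livers given CDDO-Im, 10.29, 8.91 and 10.05 in the CKO vehicle livers, and 9.44, 8.64 and 9.36 in the CKO livers given the drug. Every WT vehicle liver was thus above every other liver for Fdps, and every CKO CDDO-Im liver was below every WT CDDO-Im liver. Averaged over treatments its change of -1.15 ± 0.33 was not called (adjusted p = 0.0508), and without WT vehicle 1 it was -0.89 ± 0.26 (adjusted p = 0.0679).

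Idi1, the isomerase of the isoprenoid units, had group means of 9.58 ± 0.91 (SD, n = 3), 8.90 ± 0.82, 8.39 ± 0.70 and 8.26 ± 0.40 in WT vehicle, WT CDDO-Im, CKO vehicle and CKO CDDO-Im, with overlapping livers. Of the kinase genes of the route, Pmvk averaged 8.01 ± 0.62, 7.57 ± 0.37, 7.31 ± 0.26 and 7.19 ± 0.23, and Mvk 5.40 ± 0.27, 5.22 ± 0.35, 5.12 ± 0.20 and 5.12 ± 0.10. For both the WT vehicle mean was the highest, and neither passed a test in any comparison. Pmvk changed by -0.71 ± 0.29 with Keap1 deletion under vehicle (limma, adjusted p = 0.185), without overlap of the livers. Mvk read 4.82 to 5.65 over all livers, close to the filter of 5.

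From squalene onward, all 11 genes tested were lower with Keap1 deletion under vehicle and 10 of 11 with CDDO-Im in WT livers, against 51.2% and 55.1% of all genes. None was called by its brightest probe set in those comparisons. By the unadjusted p under 0.05 the counts were 4 of 11 and 2 of 11, against 22.2% and 19.6% of all genes. These counts were 2 and 0 without WT vehicle 1, with 11 and 8 of the 11 genes lower, against 52.7% and 55.7% of all genes. Fdft1 encodes squalene synthase, the first enzyme committed to sterols. Its signals were 10.83, 10.40 and 10.42 in the WT vehicle livers, 10.30, 10.40 and 10.45 in the WT livers given CDDO-Im, 9.87, 9.71 and 10.39 in the CKO vehicle livers, and 9.69, 10.10 and 9.88 in the CKO livers given the drug. CKO vehicle 5 was the CKO liver that reached the WT range. Averaged over treatments Fdft1 fell by 0.53 ± 0.13 (log2) in CKO livers (adjusted p = 0.0282), with no call when any 1 of WT vehicle 1, WT CDDO-Im 3 or 4, CKO vehicle 3 or 4, or CKO CDDO-Im 2 or 4 was left out. It was -0.46 ± 0.13 without WT vehicle 1 (adjusted p = 0.0579). A second probe set of Fdft1, 1438322_x_at, gave -0.27 ± 0.13 (adjusted p = 0.228).

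Dhcr7, the reductase that makes cholesterol from its last precursor, read 10.57, 9.33 and 9.55 in the WT vehicle livers, 9.07, 9.22 and 9.58 in the WT livers given CDDO-Im, 8.89, 8.72 and 8.96 in the CKO vehicle livers, and 8.37, 8.92 and 8.84 in the CKO livers given the drug. Every CKO liver was below every WT liver, the nearest pair being 8.96 and 9.07. Averaged over treatments the fall was 0.77 ± 0.20 (adjusted p = 0.0367) with all arrays and 0.58 ± 0.13 without WT vehicle 1 (adjusted p = 0.0266). The call was lost without any 1 of the 9 arrays outside WT vehicle, with adjusted p up to 0.137 over all alternatives tried.

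Sqle showed how far 1 liver could set a group mean. Its signals were 11.72, 9.38 and 8.61 in the WT vehicle livers, 8.69, 8.83 and 9.93 in the WT livers given CDDO-Im, 8.88, 7.77 and 9.59 in the CKO vehicle livers, and 8.51, 7.78 and 8.44 in the CKO livers given the drug. Both other WT vehicle livers lay inside the range of the CKO vehicle livers and overlapped the WT livers given CDDO-Im. The change with CDDO-Im in WT livers was -0.75 ± 0.73 with that liver and 0.16 ± 0.54 without it, and with Keap1 deletion under vehicle -1.15 ± 0.73 and -0.25 ± 0.54, none of them called.

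Nsdhl, a sterol dehydrogenase of the demethylation steps, read 10.83, 9.17 and 9.22 in WT vehicle and 8.54 to 9.53 in the other 9 livers. Cyp51, the lanosterol demethylase, read 9.17, 8.20 and 7.79 in WT vehicle and 6.73 to 8.21 elsewhere, with the lowest value in CKO vehicle 4. In both genes WT vehicle 1 was the only liver outside the common range. Msmo1, the sterol methyl oxidase that acts after Cyp51, had 12.05 in WT vehicle 1 and 9.85 to 11.69 elsewhere. Hsd17b7, the keto reductase of the same steps, had 9.61 in WT vehicle 1 and 7.99 to 8.76 elsewhere, and Lss, which closes the sterol rings, had 10.22 in WT vehicle 1 and 8.71 to 9.65 elsewhere. Ebp, a sterol isomerase, varied least of the 11, with group means of 13.16 ± 0.14, 13.06 ± 0.11, 12.93 ± 0.08 and 12.86 ± 0.19, and Tm7sf2, a sterol reductase, ranged from 9.59 to 11.36 within the WT vehicle livers alone.

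Sc5d, the desaturase that makes the precursor used by Dhcr7, changed by its other probe sets and not by its brightest. The brightest, 1451457_at, read 13.33, 12.33 and 12.67 in the WT vehicle livers, 12.23, 11.91 and 11.69 in the WT livers given CDDO-Im, 12.01, 11.36 and 11.91 in the CKO vehicle livers, and 11.83, 11.73 and 11.14 in the CKO livers given the drug. All WT vehicle livers were above all others, but the nearest were 12.33 and 12.23, and the changes of -0.83 ± 0.28 and -1.02 ± 0.28 were not called (adjusted p = 0.135 with CDDO-Im in WT livers and 0.0604 with Keap1 deletion under vehicle). They were -0.55 ± 0.26 and -0.74 ± 0.26 without WT vehicle 1 (adjusted p = 0.299 and 0.171).

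Probe set 1424709_at of Sc5d read 7.26, 7.31 and 7.13 in the WT vehicle livers, 6.00, 5.67 and 5.58 in the WT livers given CDDO-Im, 5.63, 5.60 and 5.91 in the CKO vehicle livers, and 5.60, 5.17 and 5.60 in the CKO livers given the drug. Here WT vehicle 1 did not stand apart, and the 3 WT vehicle livers were more than 1 log2 unit above every other liver. Tested among 13298 probe sets, the signal fell by 1.48 ± 0.15 with CDDO-Im in WT livers (limma, adjusted p = 0.000758, 3.96% of probe sets called) and by 1.52 ± 0.15 with Keap1 deletion under vehicle (adjusted p = 0.000408, 6.23% called). In CKO livers the drug's change was -0.26 ± 0.15, and the interaction of 1.23 ± 0.21 had an adjusted p of 0.0473 (0.316% called), lost on leaving out any 1 array except WT CDDO-Im 2, with adjusted p up to 0.135.

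The other probe set of Sc5d, 1434520_at, read 11.28, 10.90 and 10.86 in the WT vehicle livers, 9.77, 9.12 and 8.98 in the WT livers given CDDO-Im, 9.55, 9.15 and 9.36 in the CKO vehicle livers, and 9.37, 9.09 and 8.78 in the CKO livers given the drug. It fell by 1.72 ± 0.22 with the drug (adjusted p = 0.00292) and its change with Keap1 deletion under vehicle was -1.66 ± 0.22 (adjusted p = 0.00233), and its interaction of 1.44 ± 0.31 did not pass (adjusted p = 0.107). The falls of both probe sets remained called under every alternative tried, 19 for the former and 20 for the latter. The 3 probe sets thus had the same direction in both comparisons and differed in size. Which part of the transcript each one reads was not known here. Over the set, 49 probe sets were tested, and 13 genes had more than 1. All probe sets of a gene had the same sign in 11 of these 13 genes with CDDO-Im in WT livers (the exceptions were Npc2 and Srebf2) and in 12 of 13 with Keap1 deletion under vehicle (the exception was Abca1).

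**Figure D5:**
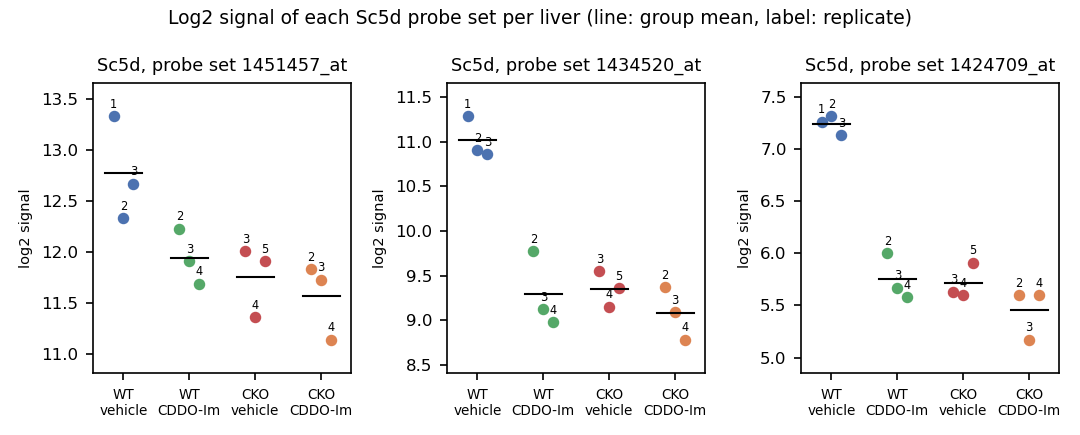
Log2 signal of the 3 Sc5d probe sets (1 panel each, vertical axis) in every liver, with replicate numbers and a line at each group mean; levels of different probe sets cannot be set against each other. In the middle and right panels the WT vehicle livers are clear of all other livers, and in the left panel WT vehicle 2, at 12.33, is close to WT CDDO-Im 2, at 12.23.

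Of the genes of transport inside the cell, Stard4 fell with Keap1 deletion. Stard4 encodes a soluble carrier that moves cholesterol between membranes and is itself a known sterol response target. It read 11.37, 11.19 and 10.45 in the WT vehicle livers, 10.53, 10.33 and 10.10 in the WT livers given CDDO-Im, 9.11, 9.29 and 9.79 in the CKO vehicle livers, and 10.07, 9.32 and 9.46 in the CKO livers given the drug. All CKO livers were lower than all WT livers, the nearest pair being CKO CDDO-Im 2, at 10.07, and WT CDDO-Im 4, at 10.10. Under vehicle the fall was 1.60 ± 0.28 (log2), 3.04-fold (adjusted p = 0.00873), and it was 1.42 ± 0.30 without WT vehicle 1 (adjusted p = 0.0332). Averaged over treatments it was 1.15 ± 0.19 (adjusted p = 0.00586), and that call was kept under each of 22 alternatives.

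The other probe sets of Stard4 gave the same direction. Probe set 1455011_at read 10.09, 9.84 and 9.33 in WT vehicle and 8.04, 8.20 and 8.45 in CKO vehicle, a fall of 1.52 ± 0.26 (adjusted p = 0.00865). The other, 1429239_a_at, gave -1.24 ± 0.35 there and was not called (adjusted p = 0.0648). With CDDO-Im in WT livers the change of the brightest probe set was -0.68 ± 0.28 (adjusted p = 0.209), under CDDO-Im the CKO livers were 0.70 ± 0.28 lower (adjusted p = 0.236), and the interaction of 0.90 ± 0.39 had an adjusted p of 0.473. Npc1 and Npc2 encode the proteins that release cholesterol from lysosomes. Npc1 averaged 9.45 ± 0.20 and 9.47 ± 0.21 in the WT groups against 9.01 ± 0.23 and 9.10 ± 0.23 in the CKO groups, 0.41 ± 0.12 lower over both treatments (adjusted p = 0.0515, not called). Npc2 stayed between 11.59 and 12.13 in all livers.

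Of the 5 export genes, 3 were lower in each of the comparisons with WT vehicle, and 1 call was made, for Abca1 with CDDO-Im. The shares lower over all genes were 55.1% with CDDO-Im in WT livers and 51.2% with Keap1 deletion under vehicle. Abca1, the transporter that loads cholesterol and phospholipid onto apolipoprotein A-I, read 13.05, 12.98 and 12.93 in the WT vehicle livers, 12.34, 12.32 and 12.41 in the WT livers given CDDO-Im, 12.72, 12.92 and 12.91 in the CKO vehicle livers, and 12.84, 12.78 and 12.68 in the CKO livers given the drug. The WT CDDO-Im livers were the lowest 3 of the 12, and the CKO groups overlapped each other. CDDO-Im lowered Abca1 in WT livers by 0.63 ± 0.08 (log2), 1.55-fold (adjusted p = 0.00288), and by 0.60 ± 0.09 without WT vehicle 1 (adjusted p = 0.0124). In CKO livers the drug's change was -0.08 ± 0.08 (95% interval -0.26 to 0.09), and Keap1 deletion under vehicle gave -0.14 ± 0.08 (-0.31 to 0.04). The interaction was 0.55 ± 0.11 (adjusted p = 0.0885, and 0.218 without WT vehicle 1), so a difference in the drug's change between genotypes was not called.

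Under CDDO-Im, Abca1 was 0.41 ± 0.08 higher (log2) in CKO than in WT livers, 1.33-fold (adjusted p = 0.0347). That call was lost without any 1 of the 6 livers compared. CKO vehicle livers exceeded WT CDDO-Im livers by 0.49 ± 0.08, 1.41-fold (adjusted p = 0.0102). The 2 other Abca1 probe sets were also lower with CDDO-Im in WT livers, with 1421839_at at -0.41 ± 0.16 (adjusted p = 0.178) and 1450392_at at -0.39 ± 0.19 (adjusted p = 0.292), and neither was called. Under vehicle these 2 probe sets were 0.07 ± 0.16 and 0.24 ± 0.19 higher in CKO livers, opposite in sign to the brightest. Abca1 is also expressed by macrophages, whose summed marker signal was 12.90 to 13.81 in WT vehicle, 13.33 to 13.50 in WT CDDO-Im, 13.26 to 13.83 in CKO vehicle and 13.30 to 13.88 in CKO CDDO-Im, and their part in the Abca1 result was not tested.

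Abcg5 and Abcg8 form the transporter that secretes cholesterol and plant sterols into bile, and their group means were higher in each of the 3 other groups than in WT vehicle. Abcg5 read 11.82, 10.80 and 10.80 in the WT vehicle livers, 12.16, 11.21 and 11.28 in the WT livers given CDDO-Im, 11.77, 12.07 and 12.24 in the CKO vehicle livers, and 12.44, 12.21 and 11.98 in the CKO livers given the drug. Abcg8 read 10.35, 9.24 and 9.14, then 10.76, 10.20 and 10.26, then 9.81, 10.43 and 10.64, then 11.20, 10.93 and 10.54 in the same order. For both genes WT vehicle 2 and 3 were the lowest of the 12 livers and WT vehicle 1 lay about 1 log2 unit above them, inside the range of the CKO vehicle livers. WT CDDO-Im 2 also lay above the other livers of its group, at 12.16 for Abcg5 and 10.76 for Abcg8.

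With all arrays neither transporter gene was called. Abcg5 was 0.89 ± 0.31 higher with Keap1 deletion under vehicle (adjusted p = 0.126) and Abcg8 0.83 ± 0.33 higher with CDDO-Im in WT livers (adjusted p = 0.206). Without WT vehicle 1, Abcg5 rose by 1.23 ± 0.27 with Keap1 deletion, 2.34-fold (adjusted p = 0.0426), and Abcg8 by 1.22 ± 0.27 with CDDO-Im, 2.33-fold (adjusted p = 0.0495). In the same setting the change of Abcg8 with Keap1 deletion, 1.10 ± 0.27 (adjusted p = 0.0621), and that of Abcg5 with CDDO-Im, 0.75 ± 0.27 (adjusted p = 0.186), were not called. Averaged over treatments and without that liver, Abcg5 rose by 0.95 ± 0.18 (adjusted p = 0.0175) and Abcg8 by 0.79 ± 0.18 (adjusted p = 0.0316) in CKO livers. This setting was chosen after the signals were seen. It drops the high liver of WT vehicle and keeps WT CDDO-Im 2, the high liver of the WT CDDO-Im group.

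The remaining genes of the export branch were not called. Nr1h3, which encodes liver X receptor alpha, averaged 9.19 ± 0.12 (WT) and 9.15 ± 0.27 (CKO) under vehicle, and 8.93 ± 0.18 (WT) and 8.82 ± 0.28 (CKO) under CDDO-Im. Mylip, a ubiquitin ligase that liver X receptors induce and that degrades lipoprotein receptors, read 8.89, 9.05 and 8.34 in WT vehicle and 8.20, 7.89 and 8.39 in WT CDDO-Im. Its CKO CDDO-Im livers ranged from 7.82 to 9.29, wider than the whole difference between groups.

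Among other genes of the pathway, those that supply acetyl-CoA and branch off to other isoprenoids included 1 fall of 12 tested with CDDO-Im in WT livers and 2 of 12 with Keap1 deletion under vehicle, and no gene rose. The shares called over all genes were 3.65% and 6.51%, so so few calls in a short list say little about the list. Acly makes cytosolic acetyl-CoA from citrate. Its signals were 13.67, 13.48 and 13.17 in the WT vehicle livers, 12.09, 11.41 and 11.19 in the WT livers given CDDO-Im, 11.57, 12.38 and 11.15 in the CKO vehicle livers, and 11.40, 11.24 and 11.25 in the CKO livers given the drug. The 3 WT vehicle livers were far above the rest, with falls of 1.88 ± 0.30 with the drug (adjusted p = 0.00924) and 1.74 ± 0.30 with Keap1 deletion (adjusted p = 0.0089). Both remained called without WT vehicle 1, at adjusted p = 0.0316 and 0.0362. Lbr, a lamin receptor that is also a sterol reductase, fell by 0.72 ± 0.17 with Keap1 deletion (adjusted p = 0.0335), a call lost without WT vehicle 1 (adjusted p = 0.0703).

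Of the sensing and turnover machinery, 10 genes were tested, where 3.65% of all genes were called with CDDO-Im in WT livers and 6.51% with Keap1 deletion under vehicle. Srebf1, the sterol response factor that mainly serves fatty acid synthesis in liver, fell by 1.97 ± 0.40 with CDDO-Im in WT livers (adjusted p = 0.0259), where 1 of 10 genes was called. It read 13.80, 13.72 and 13.72 in the WT vehicle livers, 12.62, 11.62 and 11.10 in the WT livers given CDDO-Im, 12.78, 13.34 and 12.05 in the CKO vehicle livers, and 12.91, 12.50 and 12.03 in the CKO livers given the drug, and the fall was not called without WT vehicle 1 (-1.94 ± 0.47, adjusted p = 0.066). Mbtps2, the protease that makes the last cut in releasing the sterol response factors, rose by 0.60 ± 0.10 with Keap1 deletion under vehicle (adjusted p = 0.00559), also 1 of 10. WT vehicle livers read 7.34, 7.34 and 7.06 for Mbtps2 and CKO vehicle livers 7.84, 7.94 and 7.77.

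For the other transport and esterification genes, 0 of 14 were called with CDDO-Im in WT livers (3.65% of all genes). With Keap1 deletion under vehicle 2 of 14 fell (6.51% of all genes called). These were Lrp1, a large endocytic lipoprotein receptor, by 0.48 ± 0.12 (adjusted p = 0.0337), and Nceh1, a cholesterol ester hydrolase, by 1.13 ± 0.26 (adjusted p = 0.0318). Neither was called in that comparison without WT vehicle 1. Both were also lower in CKO vehicle than in WT CDDO-Im livers, with Lrp1 falling by 0.60 ± 0.12 (adjusted p = 0.0217) and Nceh1 by 1.08 ± 0.26 (adjusted p = 0.0472). Of 10 other targets and partners of sterol receptors, 1 fell with CDDO-Im in WT livers, Mlxipl, a glucose-responsive factor, by 0.56 ± 0.11 (adjusted p = 0.0248, and 0.0534 without WT vehicle 1), and 0 were called with Keap1 deletion under vehicle.

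Markers of other cell types moved in places beside these changes, and their part in the results was not tested. With Keap1 deletion under vehicle, Marco, of Kupffer cells, rose by 2.3 ± 0.46 (adjusted p = 0.0151), Lyve1, of sinusoidal endothelium, rose by 2.24 ± 0.46 (adjusted p = 0.0176), Reln, of stellate cells, fell by 0.51 ± 0.12 (adjusted p = 0.0348), and Car3, abundant in adipose tissue and also in male liver, fell by 1.59 ± 0.37 (adjusted p = 0.0332). That is 1 of 8, 1 of 7, 1 of 6 and 1 of 2 markers tested in their lists, where 6.51% of all genes were called, while 0 of 7 hepatocyte markers were called in any of the 8 comparisons. Of these 4 calls, that of Marco was kept without WT vehicle 1. The median changes of the markers tested in the same 4 lists were 0.26, -0.18, -0.24 and -0.6, so the endothelial median was opposite in sign to Lyve1. With CDDO-Im in WT livers Lyve1 was the 1 marker called, a rise of 2.57 ± 0.46 (adjusted p = 0.015), where 3.65% of all genes were called. The 7 endothelial markers tested had a median change of 0.08 there. Summed endothelial markers read 12.11 to 12.31 in WT vehicle, 11.99 to 12.26 in WT CDDO-Im, 12.08 to 12.15 in CKO vehicle and 11.99 to 12.53 in CKO CDDO-Im. The 4 neutrophil markers summed to 6.58 to 9.36 in WT vehicle, 6.56 to 9.94 in WT CDDO-Im, 9.49 to 13.36 in CKO vehicle and 8.09 to 9.99 in CKO CDDO-Im, with S100a9 and Mmp8 never above 5. Only 1 of the 4 was bright enough to be tested, and its change of 3.02 with Keap1 deletion under vehicle was not called. The 3 adipose markers summed to 15.07 to 15.29 in WT vehicle and to 12.99 to 14.76 in the other groups, with Adipoq never above 5, and the WT vehicle livers did not overlap the rest. Of 6 lymphocyte markers 5 never exceeded a log2 signal of 5, and none of the 3 pancreatic acinar markers with a probe set did.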

How the data were processed

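Whole liver RNA from 12 mice was hybridised to 1 Affymetrix mouse array each. The authors deposited log2 signals. The submitters' processing notes name GCRMA 2.12.1 and R 2.7.0, with no settings in what was available here. GCRMA corrects background, normalizes arrays to each other and summarises 45101 probe sets. Array medians were 2.32 to 2.34, and 16494 to 16776 probe sets per array lay within 1e-06 of the lowest value, and a linear fold is printed for a gene only if each of its compared means reaches 5. No values were missing (0), 0 pairs of arrays were identical, and the lowest correlation between replicates was 0.996. Precision is limited by having 3 arrays in a group.

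Groups came from the labels, and nothing there says that replicate numbers pair the mice. Over 12 pairs with the same number, deviations from the group means correlated at -0.17 to 0.15, with 3 pairs over 0.1, so the numbers were not taken as pairs. Per the platform annotation, 34945 probe sets name 1 gene. The brightest by mean over all arrays stood for its gene, and genes above 5 on 3 or more arrays were tested. One limma 3.58.1 model (R 4.3.3) fitted 4 group means to 8338 genes (8 residual degrees of freedom, prior 2.32), two-sided, with Benjamini-Hochberg adjustment and a threshold of 0.05. The fit was checked on simulated data. Of 8 comparisons, 2 averaged ones were added after the values were seen, as were the full results without WT vehicle 1 and the tests of every probe set. The members, the gene lists and the tests were chosen with earlier results of these data known. All members may be named, with full statistics for those called, and up to 2 rises and 2 falls for each other list; genes named beyond that are the nearest misses, chosen after their values were seen.

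Alternatives were quantile normalization, median centring, no filter, a stricter filter, the mean of a gene's probe sets, values below 5 set to 5, a limma fit with trend and robust variances, only the groups compared, a replicate block and leaving out each array. Background correction and slide could not be varied from processed values.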

Additional observations from a re-analysis of the deposited data

Results flagged for a closer look

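Sc5d probe set 1424709_at is listed because the effect of CDDO-Im differed between the genotypes by the interaction test. The signal fell by 1.48 ± 0.15 on the log2 scale with CDDO-Im in WT livers and changed by -0.26 ± 0.15 in CKO livers, an interaction of 1.23 ± 0.21 (limma over 13298 probe sets, adjusted p = 0.0473). All 3 WT livers given the drug lay below all 3 WT vehicle livers. The interaction was 1.21 without WT vehicle 1 (adjusted p = 0.119), 1.20 with the replicate block (adjusted p = 0.224) and 1.23 with no filter on low signal (adjusted p = 0.243), none of them past the threshold. It was called in 6 of 19 alternatives, among them the one without WT CDDO-Im 2 (1.35, adjusted p = 0.038). The same change was not called for the other 2 probe sets of Sc5d, whose interactions were 1.44 ± 0.31 (adjusted p = 0.107) and 0.63 ± 0.40 (adjusted p = 0.631). In CKO livers under vehicle the signals of this probe set were 5.63, 5.60 and 5.91, against the log2 signal of 5 used as the filter.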

How the results depend on the processing

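The number of cholesterol genes called was small, so single alternatives moved it. An alternative can also move the calls over all genes. Apart from leaving out WT vehicle 1, the share of all genes called in each alternative is not given here. The counts below are therefore not read as a result about the set. With CDDO-Im in WT livers the count of 2 became 1 with no filter on low signal, 1 with only the groups compared and 0 with the replicate block, 3 with the mean of a gene's probe sets (Sc5d was added), and 1 to 2 on leaving out 1 array. With Keap1 deletion under vehicle the count of 2 became 1 with no filter, 0 with only the groups compared and 1 with the block, and 1 to 3 on leaving out 1 array. Under CDDO-Im the 1 gene higher in CKO livers became 0 with no filter, 0 with the mean of a gene's probe sets, 0 with only the groups compared and 0 with the block, and 0 to 1 on leaving out 1 array. For CKO vehicle against WT CDDO-Im the count of 1 became 0 with only the groups compared. For genotype averaged over treatments the count of 4 became 1 with no filter, 8 with at least 6 arrays above 6, 8 with trend and robust variances, and 2 to 6 on leaving out 1 array. For treatment averaged over genotypes the count of 1 became 2 with the block and 1 to 2 on leaving out 1 array. Using only the groups compared leaves fewer degrees of freedom, no filter tests more genes, and the cause of the other shifts was not tested. The replicate block, for numbers that were not taken as pairs, moved the other counts by at most 1 (4 became 5 for genotype averaged over treatments). The median change of the set kept its sign in every alternative for CDDO-Im in WT livers (-0.59 to -0.10) and for Keap1 deletion under vehicle (-0.76 to -0.25), and the end nearest 0 was without WT vehicle 1. No called change turned its sign (0 in all). Of those not called, the change of Abca1 with Keap1 deletion under vehicle (-0.14) was 0.06 with the mean of a gene's probe sets, and the median with CDDO-Im in CKO livers (-0.10) was 0.03 with the replicate block and 0.01 without CKO vehicle 5. Without WT vehicle 1 the calls over all genes were 241 and 300 in these 2 comparisons, against 304 and 543, of 8326 genes tested. The fall of Abca1 in WT livers given CDDO-Im kept its call in 21 of 22 alternatives (adjusted p up to 0.0512) and that of Stard4 with Keap1 deletion under vehicle in 21 of 22 (up to 0.0537), while that of Aacs was lost in 12 of 22 and that of Insig1 in 9 of 22. Probe sets near the floor, such as those of Mvd, gave no test.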
